A study of Mus musculus with 23 samples.

Results

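Clonal preadipocyte lines that carry no numbered type, labelled Other (7 lines), were compared directly with lines labelled Type 2 (5 lines). These are 12 of the 23 lines of the series, chosen by the adipocyte type label alone. Preadipocytes are the precursor cells of fat, and each line here descends from 1 sorted cell of the stroma, the cells that remain after collagenase digestion of fat once the fat cells are taken off. All lines came from the subcutaneous or perigonadal fat of 1 male Immortomouse aged 8 weeks, so each line is 1 clone and none is a separate animal. In this strain a temperature-sensitive viral T antigen is driven by an interferon-inducible promoter of a class I histocompatibility gene. Every line, in both groups, was kept at 33 °C with interferon gamma at 10 units/mL, so interferon-responsive genes were measured in treated cells throughout. The clone names start with SCF in 4 Other and 4 Type 2 lines and with PGF in 3 Other lines and 1 Type 2 line, prefixes taken here as subcutaneous and perigonadal fat. Fisher's exact test of this split gave a two-sided p of 0.58. The sources used here do not say whether RNA was taken before or after the induction of differentiation.

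The submitters formed the types by clustering expression data. A p-value between Other and Type 2 therefore describes these groups and is no independent evidence that they exist, and it measures the spread between clones of 1 mouse. Levels are log2 signal from 1 array per line. Means carry the SD across lines and differences between groups carry their SE. A difference of 1 on this scale is a doubling of the signal.

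As background, interferons of type I act through a receptor on the cell surface and the factors Stat2 and Irf9, which bind a promoter element called ISRE. Interferon gamma acts through its own receptor and an element called GAS. Both induce antiviral effectors and chemokines, the secreted proteins that draw leukocytes, and fat precursors are a known source of chemokines in adipose tissue. Smooth muscle contractile genes such as Acta2 and Tagln mark contractile mesenchymal cells and myofibroblasts. Pparg is the central transcription factor of fat cell formation, and Wnt signalling is known to hold precursors back from it.

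Of 12307 genes tested with limma over all 23 lines, 1 gene, Itpkb, was higher in Other after Benjamini-Hochberg adjustment at 0.05 (0.00813% of genes tested), and 0 genes were lower (0%). At an unadjusted p below 0.05, 846 genes were higher (6.87%) and 805 were lower (6.54%). Every Other line lay above every Type 2 line for 51 genes (0.414%), and every Other line lay below for 34 (0.276%). Most single genes therefore did not pass, and for these the values are given.

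Itpkb, on chromosome 1, encodes a kinase that phosphorylates inositol trisphosphate, a messenger that releases calcium. Its level in Other was lowest at 6.40, had a median of 6.65 and was highest at 7.23, and in Type 2 lines 1 to 5 it was 5.87, 6.06, 5.92, 6.10 and 5.63. The groups did not overlap. Itpkb rose by 0.84 ± 0.12 in Other, a 1.78-fold higher signal (limma, adjusted p = 0.0088), and its other probe set differed by 0.51 in the same direction. It passed in 31 of 35 alternative analyses, with adjusted p from 0.0010 to 0.25. It did not pass when only these 12 lines were fitted (adjusted p = 0.25), with the probe sets of a gene averaged (0.094), in SCF lines alone (0.062) or without Type 2 line 1 (0.051). In Type 3 lines, which share the Type 2 lines as the other side of the comparison, the difference from Type 2 was 0.66 ± 0.12.

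Leaving out Other line 7, a PGF line, gave the largest count of genes among all settings tried. Without it, 128 genes were higher in Other at an adjusted p below 0.05 (1.04% of genes tested) and 88 were lower (0.715%). Leaving out the other Other lines in turn gave 1 to 16 genes, and leaving out a Type 2 line gave 0 to 5. Other line 7 carried the highest Acta2, Tagln and Ccn2 of the 12 lines and the lowest Pparg, and its Mx1 lay within the range of Type 2. The 24 genes of smallest p named below, 12 in each direction, all passed without it (adjusted p from 0.0049 to 0.041). These genes were picked for small p in the same lines, and leaving out line 7 was the setting with the most genes. Passing without line 7, here and below, is therefore a description and no independent support.

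Antiviral genes of the type I interferon response had higher means in Other than in Type 2, although no single one passed with all lines. Of 28 tested, 27 had a positive difference, with a median of 0.88 against 0.00 over all genes tested. At an unadjusted p below 0.05, 22 were higher and 1, Ifi27, was lower. Without Other line 7 the median was 1.04, and 8 of the 28 rose past the adjusted threshold, namely Mx1, Mx2, Ifit1, Ifit2, Ifit3, Rsad2, Irf9 and Dhx58. List scores, the mean of gene-centred log2 values in a line, ran from -0.33 in Other line 7 to 1.32 in Other line 6, and from -1.29 in Type 2 line 5 to -0.01 in Type 2 line 2. The ranges overlapped through Other lines 3 and 7.

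Promoter sequence is shown for Ifit1, Ifit3 and Rsad2, antiviral effectors of this list, and for Cxcl10 and Cxcl9, the interferon-induced chemokines described after them, because their promoters hold the letters of the ISRE core. Sequences are from the RefSeq promoter table (GRCm38.p6), 5′ to 3′ on the strand of the gene, cut to the bases around each match within 250 bases before the start. Capitals mark the ISRE core letters TTCNNTTTC on either strand, and 2 matches that overlap run together.
Ifit1, chr19:34640750-34640843, plus strand: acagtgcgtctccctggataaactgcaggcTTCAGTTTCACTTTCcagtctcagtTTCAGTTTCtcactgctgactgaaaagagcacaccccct
Ifit3, chr19:34583344-34583465, plus strand: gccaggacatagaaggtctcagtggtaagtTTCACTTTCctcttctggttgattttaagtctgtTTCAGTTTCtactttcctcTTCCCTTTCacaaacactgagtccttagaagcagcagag
Rsad2, chr12:26456533-26456601, minus strand: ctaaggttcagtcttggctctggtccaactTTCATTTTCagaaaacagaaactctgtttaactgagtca
Cxcl10, chr5:92349064-92349132, minus strand: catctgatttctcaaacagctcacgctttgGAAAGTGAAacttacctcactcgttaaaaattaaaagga
Cxcl9, chr5:92328216-92328284, minus strand: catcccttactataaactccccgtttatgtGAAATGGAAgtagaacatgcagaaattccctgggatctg
Ifit1 and Ifit3 held 3 matches each, and Rsad2, Cxcl10 and Cxcl9 held 1 each. Of the 28 type I genes, 19 matched a promoter in the table, and 9 of these (47.4%) held the ISRE letters, against 7.23% of the 9921 tested genes with a promoter there. The GAS letters TTCNNNGAA were found in 4 of the 19 (21.1%), against 7.05%. In the interferon gamma list, 10 of 15 promoters (66.7%) held the ISRE letters and 6 (40%) the GAS letters. Neither element therefore set the type I list apart from the interferon gamma list. Both lists were made of known interferon targets, so these shares describe the lists. Among the 19 type I genes, the median difference was 0.90 for the 9 with ISRE letters and 0.81 for the 10 without. Cmpk2, among those without, differed by 1.76. A match of letters is not a tested binding site, and a gene without one may have its element outside these 250 bases.

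Ifit1, whose product binds viral RNA, was the clearest of these genes. It was lowest at 11.16, had a median of 12.09 and reached 13.19 in Other, against 10.16, 11.15, 10.79, 10.90 and 9.23 in Type 2 lines 1 to 5. The groups touched without overlapping, with Other line 3 just above Type 2 line 2. The difference was 1.67 ± 0.36, a 3.17-fold higher signal (limma, adjusted p = 0.089). Mx1, a dynamin-like GTPase that blocks viral replication, spanned 4.76 to 10.84 in Other with a median of 9.72, and read 4.43, 6.54, 4.57, 5.88 and 3.98 in Type 2. All Other lines but line 7 lay above every Type 2 line. The difference in Mx1 was 3.62 ± 0.91, or 12.3-fold (adjusted p = 0.13), and 4.28 ± 0.78 without Other line 7 (0.013). In Type 2 lines 1, 3 and 5 Mx1 was below the median of the whole table (5.13), so the size of its fold is uncertain.

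Rsad2, or viperin, an enzyme that makes a chain-terminating nucleotide, ran from 9.38 to 13.94 in Other with a median of 12.58. In Type 2 it was 7.89, 9.92, 10.06, 9.56 and 7.25, so that only Other line 3 fell inside the Type 2 range. Its difference was 2.88 ± 0.77 (adjusted p = 0.13). Ifi27l2a, an interferon-induced mitochondrial protein gene, had a range of 10.60 to 13.43 and a median of 11.72 in Other, and 7.69, 11.18, 9.04, 10.45 and 9.64 in Type 2. The lone Other line inside the Type 2 range was line 7. The difference was 2.36 ± 0.48, or 5.15-fold (adjusted p = 0.071). Lgals9, which encodes the secreted lectin galectin 9, was 8.48 to 9.93 in Other with a median of 9.31 and 8.22, 8.46, 7.93, 8.29 and 7.76 in Type 2. The Lgals9 groups almost touched (Other line 3 and Type 2 line 2), and the mean difference was 0.99 ± 0.22 (adjusted p = 0.090).

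**Figure D1:**
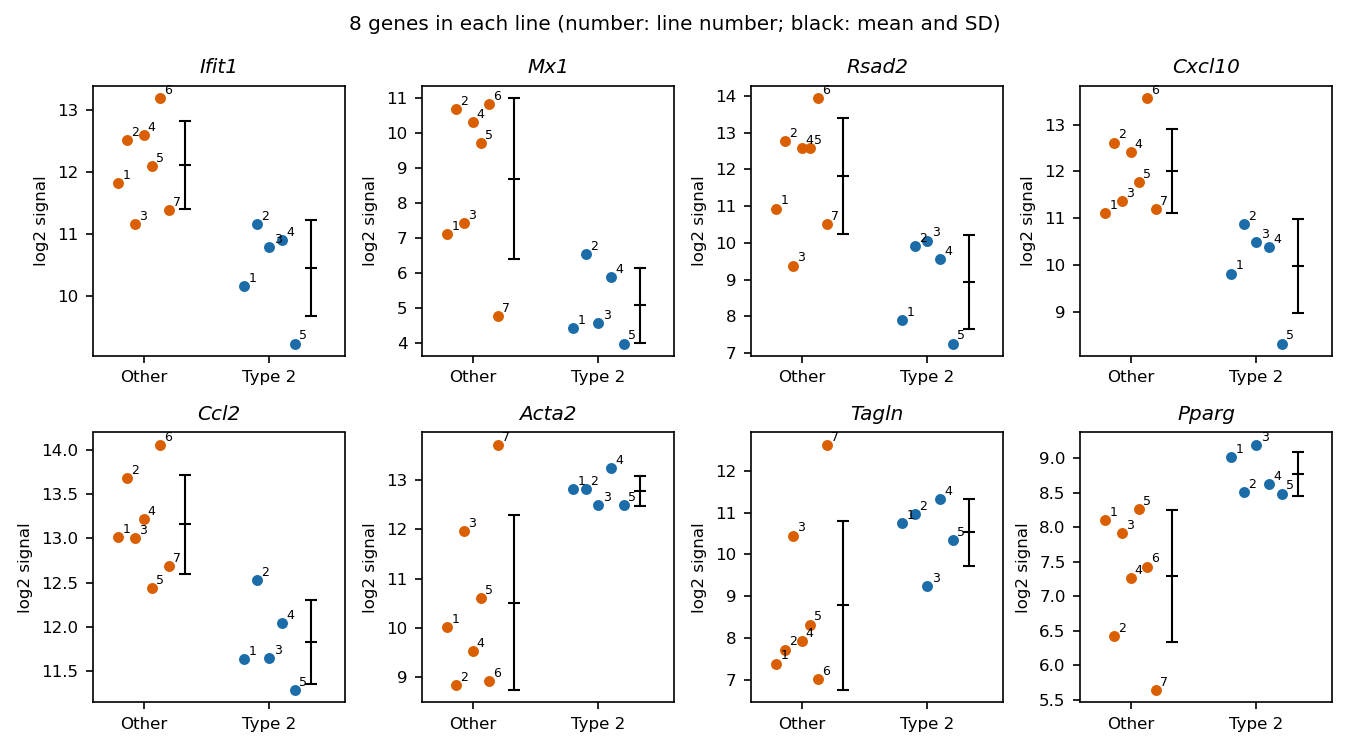
Log2 signal (vertical axis) of 8 genes in each Other (orange) and Type 2 (blue) line, with the line number beside each point and the mean and SD in black. Ifit1, Cxcl10 and Pparg show no overlap between groups, while Other line 7 sits with Type 2 for Mx1 and above every Type 2 line for Acta2 and Tagln.

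The machinery that carries interferon signals had smaller differences. Of 16 receptor and signalling genes tested, 15 were positive, with a median of 0.37, and 9 were higher and 0 lower at an unadjusted p below 0.05 (0 passed after adjustment). Usp18, a protease that damps the type I receptor, differed by 1.30 ± 0.36, and Socs3, an inhibitor of cytokine receptors, by 1.05 ± 0.33. Stat3, a factor used by the interleukin 6 family, differed by 0.44 ± 0.11 and the kinase Jak1 by 0.45 ± 0.15. Without Other line 7, 2 of the 16 passed, Irf9 and Stat3 (0.47 ± 0.11, limma, adjusted p = 0.041). Genes of the interferon gamma response had a median of 0.26, with 17 of 20 positive and 4 higher at an unadjusted p below 0.05, 3 of them chemokines. Some of these genes were near the table maximum of 14.46 in both groups, such as Iigp1 (13.98 in Other, 13.985 in Type 2) and Gbp2 (13.61, 13.37). Others were low, such as Ido1 (5.12, 4.90). Whether differences are compressed at such levels was not tested. Class I antigen presentation genes had a median of 0.11 (11 of 15 positive), and class II genes a median of 0.50 (7 of 7 positive, 1 at an unadjusted p below 0.05), or 0.75 without Other line 7. H2-K1, a class I heavy chain, was high everywhere, at 13.65 ± 0.20 (SD, n = 7) in Other and 13.27 ± 0.13 (SD, n = 5) in Type 2, a difference of 0.38 ± 0.11 (limma, adjusted p = 0.14), and of 0.45 ± 0.10 without Other line 7 (0.021).

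The chemokine list had the largest median difference among the lists of at least 7 tested genes, 1.29 over 19 genes. Of these, 16 were positive. The list includes Ackr3 (2.17 ± 0.72) and Ackr4 (-0.16 ± 0.20), which are atypical chemokine receptors and not chemokines. At an unadjusted p below 0.05, 10 were higher, Ackr3 among them, and 1, Cxcl14, was lower, and 0 passed after adjustment. Cxcl10, a ligand of the receptor Cxcr3 on T cells, ran from 11.10 to 13.56 in Other with a median of 11.78, and was 9.82, 10.88, 10.49, 10.39 and 8.32 in Type 2. Its groups did not overlap. The difference was 2.02 ± 0.58, or 4.07-fold (limma, adjusted p = 0.14). Cxcl9, a ligand of the same receptor, was 11.89 to 13.70 in Other with a median of 12.75, and 8.52, 11.22, 11.35, 12.01 and 9.32 in Type 2. Other line 7 alone fell inside the Type 2 range of Cxcl9. In Cxcl9 the difference was 2.21 ± 1.04 (adjusted p = 0.36).

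The monocyte attractants Ccl2 and Ccl7 were high in all 12 lines and higher in Other. Ccl2 ran from 12.44 to 14.06 in Other with a median of 13.02, against 11.63, 12.53, 11.64, 12.04 and 11.28 in Type 2. Other line 5 was just inside the Type 2 range. The difference in Ccl2 was 1.34 ± 0.33 (adjusted p = 0.12), and 1.41 ± 0.34 without Other line 7 (0.040). Ccl7 was 11.61 to 13.18 in Other with a median of 12.02, and 10.77, 11.35, 10.53, 11.26 and 10.70 in Type 2. The Ccl7 groups did not overlap, and the difference was 1.29 ± 0.37 (adjusted p = 0.14).

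Some chemokine means rested on few lines. Ccl5, an attractant of T cells and monocytes, reached 13.57 in Other line 6 against an Other median of 8.51, and Cxcl11, a further Cxcr3 ligand, reached 13.41 in Other line 6 and 11.47 in Other line 2 against a median of 6.31. Their differences were 2.36 ± 0.72 for Ccl5 and 2.63 ± 1.11 for Cxcl11. The chemokine list score was highest in Other lines 6 (2.06), 2 (1.48) and 4 (1.04), while Other lines 5 (-0.60) and 7 (-0.21) lay inside the Type 2 range of -0.71 to -0.11.

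Other inflammatory and complement genes had positive medians. In the inflammatory and acute phase list 19 of 22 were positive with a median of 0.62, and 8 were higher and 1 lower at an unadjusted p below 0.05. Vcam1, an adhesion molecule for leukocytes, was 10.46 to 11.82 in Other with a median of 11.01, and 10.14, 10.83, 9.57, 10.40 and 9.71 in Type 2. Only Other line 1 was inside the Type 2 range. The difference was 0.99 ± 0.25 (limma, adjusted p = 0.13), and 1.03 ± 0.26 without Other line 7 (0.049). Tlr3, a sensor of double-stranded RNA, differed by 1.33 ± 0.39 with no overlap (8.77 to 10.01 in Other, 6.82 to 8.72 in Type 2). Il6st, the shared receptor subunit of the interleukin 6 family, differed by 1.00 ± 0.32. Irak2, a kinase of Toll-like receptor signalling, had the opposite sign, at -0.74 ± 0.23, and at -0.89 ± 0.20 without Other line 7 (adjusted p = 0.025).

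Complement had 6 of 7 tested genes positive, a median of 0.70 and 4 higher at an unadjusted p below 0.05. Cfb, factor B of the alternative pathway, was 8.27 to 11.37 in Other with a median of 9.71, against 7.27, 8.68, 6.94, 8.43 and 5.84 in Type 2. Other lines 1 and 3 lay inside the Type 2 range and the other 5 above it. The difference was 2.33 ± 0.53, or 5.03-fold (adjusted p = 0.099), and 2.34 ± 0.56 without Other line 7 (0.036). C1ra and C1s1, proteases of the first complement component, differed by 1.27 ± 0.47 and 0.84 ± 0.32, and their inhibitor Serping1 by 0.70 ± 0.21. C1ra passed without Other line 7 (1.64 ± 0.37, adjusted p = 0.029).

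Markers of leukocytes were read in the same lines, since such cells make several of these products. Of 16 macrophage and leukocyte markers on the array, 8 were below the table median of 5.13 in all 12 lines, among them Ptprc, Adgre1, Itgam and Cd79a. The summed level of the list was 9.76 to 12.37 in Other and 10.89 to 11.88 in Type 2 (log2 of the summed signal), so the ranges overlapped. Over the 8 of these markers that were tested, the median difference was -0.05. The most abundant of these markers was Csf1r, a receptor of macrophages, which reached 11.68 in Other line 7 and differed by -1.05 ± 0.61 between the groups. Of 10 endothelial markers, 6 were below the table median in all 12 lines, including Pecam1 and Cdh5, and the summed level was 7.94 to 10.80 in Other and 7.68 to 8.26 in Type 2. Of the 4 tested, 3 were positive with a median of 0.15. Cldn5, a tight junction protein, was lower at an unadjusted p below 0.05 (-0.22 ± 0.07, adjusted p = 0.16). Tek, an angiopoietin receptor, was the highest of the list, at 5.33 to 10.59 in Other with a median of 7.15 and at 4.89, 5.83, 4.61, 5.79 and 4.20 in Type 2 (difference 2.43 ± 0.66, limma, adjusted p = 0.14, and 2.79 ± 0.63 without Other line 7, 0.027). The part of Tek-expressing cells in the other results was not tested. Of 19 adipose progenitor markers on the array, 0 were below the table median in all 12 lines. Their median difference over 18 tested genes was 0.04. The share of all genes below the table median in all 12 lines was not computed, so these counts have no background. The filter for testing, above this median in 3 or more lines of the series, kept 12307 of 18193 genes. It kept 8 of the 16 leukocyte, 4 of the 10 endothelial and 18 of the 19 progenitor markers.

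**Figure D2:**
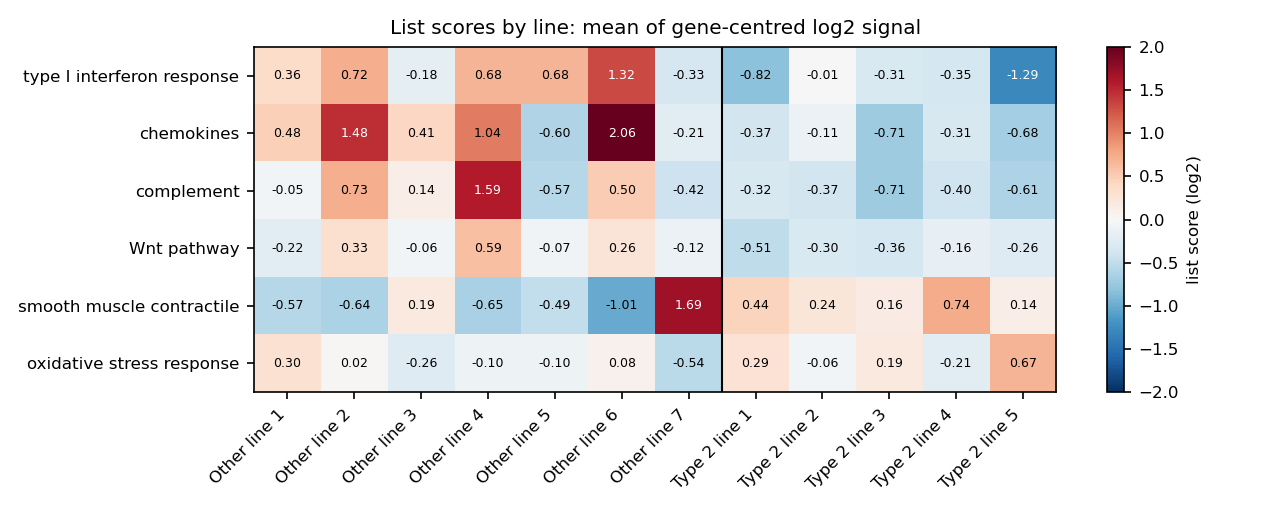
List scores (mean of gene-centred log2 signal, colour and printed value) of 6 gene lists in the 7 Other and 5 Type 2 lines, which the black line separates. Other lines 2, 4 and 6 have the highest chemokine scores and Other line 7 the highest smooth muscle score, 1.69.

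Smooth muscle contractile genes had lower means in Other. Of 17 tested, 15 were negative, with a median of -0.40, and 8 were lower and 0 higher at an unadjusted p below 0.05. The 2 positive genes were Mylk, a kinase of myosin light chain, at 1.57 ± 0.76, and Actg2 at 0.05 ± 0.97. Without Other line 7 the median was -0.79, and 5 of the 17 fell past the adjusted threshold (Acta2, Tagln, Myl9, Tpm2 and Flna). Acta2, smooth muscle actin, was 8.83 to 13.72 in Other with a median of 10.02, and 12.82, 12.82, 12.50, 13.24 and 12.50 in Type 2. Of the 7 Other lines, 6 lay below every Type 2 line and line 7 lay above every one. The difference was -2.26 ± 0.65 with all lines (limma, adjusted p = 0.15) and -2.80 ± 0.51 without Other line 7 (0.013). For Acta2, 2 of 3 probe sets had the same sign.

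Tagln, a calponin-family actin binder and a marker gene of the study, ran from 7.03 to 12.62 in Other with a median of 7.93, against 10.76, 10.95, 9.24, 11.33 and 10.35 in Type 2. Other line 3, at 10.45, fell inside the Type 2 range and line 7 above it. The difference was -1.74 ± 0.73 (adjusted p = 0.30), and -2.38 ± 0.54 without Other line 7 (0.026). Flna, an actin crosslinker, differed by -0.69 ± 0.25, the tropomyosin Tpm2 by -0.65 ± 0.25 and Synpo2, an actin-bundling protein of muscle, by -0.85 ± 0.30. Ccn2, a secreted matrix protein induced by mechanical tension, differed by -2.14 ± 0.86 and also peaked in Other line 7 (12.79). Wt1, a marker gene of the study and a mesothelial transcription factor, was low in both groups, at 3.64 ± 0.55 (SD, n = 7) in Other and 3.30 ± 0.27 (SD, n = 5) in Type 2.

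The 12 genes of smallest p in the lower direction came from several lists or none, and 0 passed. Pkp2, a desmosomal plaque protein, was 4.27 to 6.31 in Other with a median of 5.76, and 7.78, 7.26, 7.87, 6.42 and 7.81 in Type 2. The groups did not overlap. The difference was -2.0 ± 0.36, a 3.99-fold higher signal in Type 2 (adjusted p = 0.069), with 4 of 4 probe sets of the same sign. Megf10, a cell surface receptor for engulfment that is known in muscle precursors, was 4.18 to 6.31 in Other with a median of 5.07, and 7.93, 7.17, 8.45, 7.74 and 7.05 in Type 2. The lowest Type 2 line lay above the highest Other line. The difference was -2.43 ± 0.46, a 5.38-fold higher signal in Type 2 (adjusted p = 0.069). In SCF lines alone (4 against 4) the Megf10 difference was -2.23 ± 0.35 (0.047).

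Fkbp11, a folding enzyme of the endoplasmic reticulum, was 8.31 to 8.87 in Other with a median of 8.52 and 9.23, 8.92, 9.14, 9.32 and 9.26 in Type 2, again without overlap. Fkbp11 differed by -0.62 ± 0.12 (adjusted p = 0.069). Azin1, an inhibitor that keeps polyamine synthesis going, differed by -0.54 ± 0.11, and Polr3g, a subunit of RNA polymerase III, by -0.73 ± 0.16, each with the groups apart. Lrrfip1, a binder of nucleic acids, was 9.26 to 9.76 in 6 Other lines and 10.50 in Other line 7, against 10.94, 10.72, 10.86, 10.46 and 9.90 in Type 2. It differed by -0.92 ± 0.18 (adjusted p = 0.071), and by -1.07 ± 0.15 without Other line 7 (0.0049). Mamdc2 (-1.31 ± 0.25), the F-box gene Fbxo17 (-0.77 ± 0.16), the translation factor Mcts1 (-0.45 ± 0.09), the lipid droplet hydrolase Ldah (-0.37 ± 0.08), Prkag2 (-0.98 ± 0.21), a regulatory subunit of AMP-activated kinase, and Naf1 (-0.40 ± 0.09), an assembly factor of telomerase and other RNA-protein particles, complete the 12 lower genes, with adjusted p from 0.071 to 0.091.

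In the higher direction, the genes next to Itpkb were Ttc39c (1.14 ± 0.22), Spsb1 (1.26 ± 0.25), which encodes an adaptor of a ubiquitin ligase, and Zup1 (0.77 ± 0.15), a protease for ubiquitin chains. Spsb1 was 7.25 to 8.81 in Other with a median of 7.77 and 6.28, 6.17, 6.79, 6.91 and 6.99 in Type 2. Spsb1 and Zup1 did not overlap between groups, and Ttc39c did. Nlgn2, a cell adhesion protein known from synapses, differed by 0.85 ± 0.17, although 1 of its 2 probe sets had the opposite sign. Fbxl15 (0.39 ± 0.09), Aftph (0.88 ± 0.19), Fam126a (0.78 ± 0.17) and Uaca (0.62 ± 0.14) complete the 12, beside Ifi27l2a, Ifit1 and Lgals9. Adjusted p over the 11 genes other than Itpkb ran from 0.069 to 0.091.

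**Figure D3:**
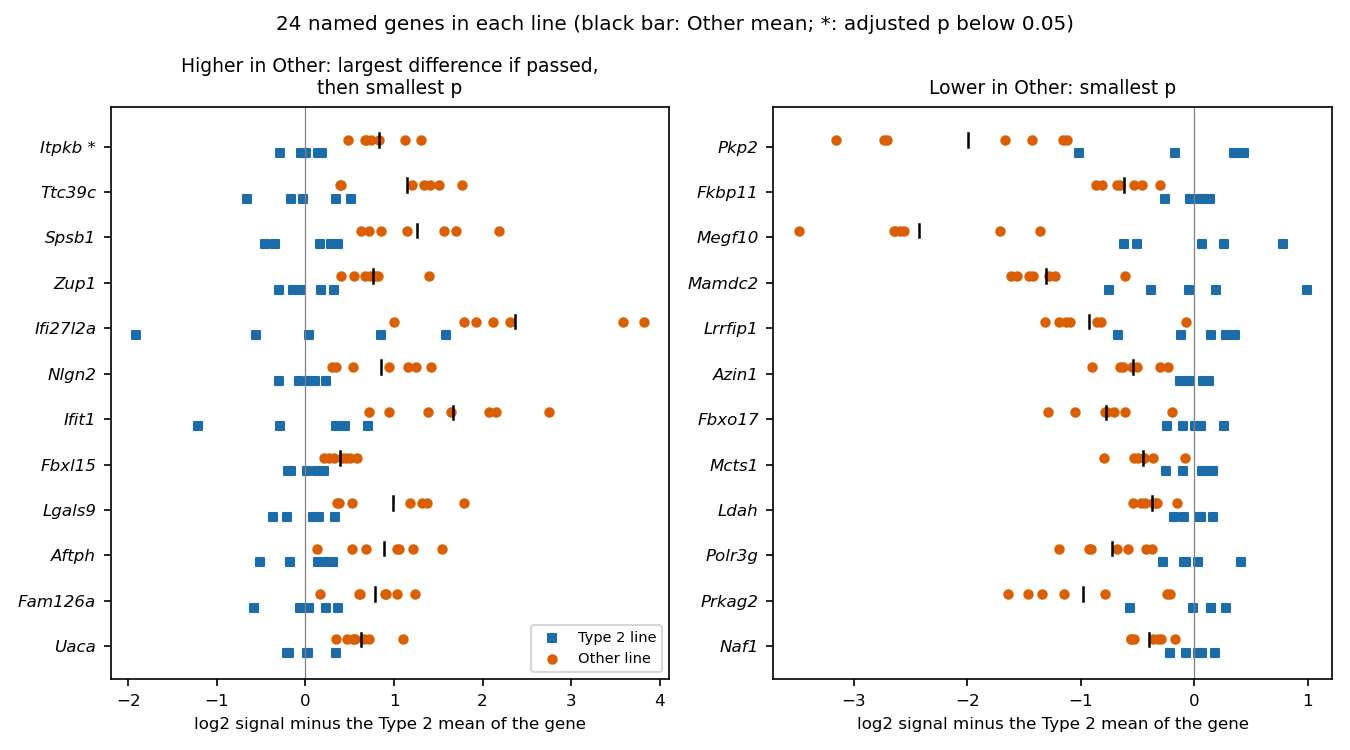
Log2 signal minus the Type 2 mean of each gene (horizontal axis) for the 12 higher and 12 lower genes, in Other lines (orange circles, black bar for the mean) and Type 2 lines (blue squares). Itpkb alone passed the adjusted threshold, and Pkp2 and Megf10 show the largest differences among the lower genes.

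Fat cell genes had differences of both signs. Of 26 adipocyte differentiation and lipid storage genes tested, 9 were positive, the median was -0.08, and 3 were higher and 4 lower at an unadjusted p below 0.05. Pparg was 5.64 to 8.26 in Other with a median of 7.43, and 9.02, 8.51, 9.20, 8.62 and 8.49 in Type 2. Every Other line lay below every Type 2 line, with line 7 the lowest. The difference was -1.48 ± 0.39, a 2.78-fold higher signal in Type 2 (limma, adjusted p = 0.13), and -1.20 ± 0.33 without Other line 7 (0.062). Fabp4, the fatty acid carrier that Pparg induces, was 4.74 to 9.28 in Other with a median of 6.57 and 10.16, 7.58, 10.69, 8.76 and 8.19 in Type 2. Other line 1 alone fell inside the Type 2 range of Fabp4, and the difference was -2.36 ± 0.69 (adjusted p = 0.15). The transcription factors Cebpd, an early factor of fat cell formation, and Klf15 had the opposite sign, at 0.96 ± 0.30 and 0.98 ± 0.31. Klf15 passed without Other line 7 (1.15 ± 0.29, adjusted p = 0.048).

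The differentiation score of the labels, from 1 to 4, was 2.71 ± 0.76 (SD, n = 7) in Other and 2.80 ± 1.10 (SD, n = 5) in Type 2. An exact two-sided permutation test over 792 arrangements gave p = 1, and 1 after adjustment over both scores. The media acidification score was 1 in 5 Other lines and 4 in lines 4 and 6, and 4, 4, 2, 4 and 1 in Type 2 lines 1 to 5. Its means were 1.86 ± 1.46 and 3.00 ± 1.41, a difference of -1.14 (exact permutation p = 0.24, adjusted 0.48). Glycolysis and acid export genes had a median difference of 0.05 (13 of 25 positive, 1 higher and 0 lower at an unadjusted p below 0.05), and respiratory chain and ATP synthase genes -0.07 (10 of 37 positive). The sources used here do not say which end of the acidification score is the more acid.

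Wnt pathway genes had a positive median of 0.28, with 23 of 30 positive and 8 higher and 0 lower at an unadjusted p below 0.05. The list mixes ligands, receptors, secreted inhibitors and target genes, so its median is no measure of Wnt signalling. Dkk3, of an inhibitor family, was among the 8 (1.15 ± 0.45). The targets Axin2 (0.02 ± 0.11), Nkd1 (0.03 ± 0.12), Nkd2 (-0.30 ± 0.20) and Lef1 (-0.21 ± 0.17) had small differences. The mean levels in Other and Type 2 were 4.99 and 4.98 for Axin2, 5.37 and 5.34 for Nkd1, and 4.945 and 5.16 for Lef1. These 3 genes lay near the table median of 5.13, and no detection call separated such low signal from background. Their small differences therefore do not show whether Wnt output was alike, which was not tested. The ligand Wnt16 was 4.96 to 9.53 in Other with a median of 7.56, and 4.99, 4.87, 5.44, 6.28 and 5.49 in Type 2. All Other lines but line 7 were above Type 2. The difference was 2.14 ± 0.53, or 4.42-fold (limma, adjusted p = 0.13), and 2.58 ± 0.42 without Other line 7 (0.011). Rspo3, a secreted amplifier of Wnt signals, differed by 1.28 ± 0.33, with 1 of 2 probe sets of that sign. The receptors Ror2 and Fzd1 differed by 1.07 ± 0.32 and 0.74 ± 0.27, and Fzd1 passed without Other line 7 (0.93 ± 0.23, adjusted p = 0.043). In Type 3 lines the differences from the same Type 2 lines were 2.39 ± 0.52 for Wnt16, 1.66 ± 0.32 for Rspo3 and 1.48 ± 0.31 for Ror2.

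Growth factor genes included large differences with wide spread. Igfbp4, a binding protein that sequesters insulin-like growth factors, was 8.18 to 13.55 in Other with a median of 11.67 and 9.80, 7.09, 6.63, 10.19 and 7.30 in Type 2. Its ranges overlapped in Other lines 5 and 7. The Igfbp4 difference was 3.09 ± 0.89, or 8.49-fold (adjusted p = 0.15), with 6 of 6 probe sets of that sign. Over 17 IGF and insulin genes the median was 0.14, with 4 higher and 1 lower at an unadjusted p below 0.05. The platelet-derived growth factors Pdgfa (-1.02 ± 0.28) and Pdgfc (-1.48 ± 0.41) had lower means in Other, in a list of 25 FGF, PDGF and EGF genes with a median of 0.04, or -0.07 without Other line 7. Of 28 TGF-beta and BMP genes, 13 were positive with a median of -0.03, or 0.02 without Other line 7. The co-receptor Tgfbr3 differed by 0.63 ± 0.23, or 0.84 ± 0.15 without Other line 7 (adjusted p = 0.013).

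Matrix genes did not share a direction. Collagens had 7 of 18 positive and a median of -0.19, or -0.04 without Other line 7. Col3a1, a fibrillar collagen, differed by 1.05 ± 0.34 (11.74 to 13.92 in Other, 10.95 to 12.35 in Type 2), while Col12a1, a fibril-associated collagen, differed by -1.0 ± 0.46. Among 8 small leucine-rich proteoglycans 6 were positive with a median of 0.42. Dcn, decorin, was 5.26 to 11.44 in Other with a median of 6.83, and 5.41, 5.52, 5.22, 6.00 and 4.28 in Type 2. It was high in Other lines 4 and 6 and near the Type 2 levels in Other line 1. Dcn differed by 2.33 ± 1.08 (adjusted p = 0.35). In matrix remodelling, 16 of 19 genes were positive with a median of 0.19, with Plat, a plasminogen activator, at 1.08 ± 0.28, or 1.15 ± 0.29 without Other line 7 (adjusted p = 0.045). Plaur, the receptor of urokinase, differed by -0.86 ± 0.29.

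Iron, retinoid and redox genes gave single genes with large differences. Scara5, a receptor for ferritin, was 4.75 to 12.29 in Other with a median of 8.34, and 4.64, 6.22, 4.33, 7.09 and 4.61 in Type 2. Other lines 1 and 7 were inside the Type 2 range. Its difference was 3.05 ± 0.96, or 8.27-fold (limma, adjusted p = 0.18), and 3.66 ± 0.86 without Other line 7 (0.035), with 1 of 2 probe sets of that sign. Cp, ceruloplasmin, an iron-oxidising enzyme, differed by 1.28 ± 0.53, and 7 of 11 iron genes were positive. Aldh1a7, an aldehyde dehydrogenase of the retinaldehyde dehydrogenase family, was 3.96 to 7.58 in Other with a median of 6.04 and 10.29, 8.94, 10.00, 8.11 and 7.67 in Type 2. The Aldh1a7 groups did not overlap, and the difference was -2.82 ± 0.69, a 7.06-fold higher signal in Type 2 (adjusted p = 0.12). Of 14 oxidative stress response genes 11 were negative, with a median of -0.26 and 4 lower and 1 higher at an unadjusted p below 0.05. Catalase (Cat) differed by -0.49 ± 0.12 and Nqo1, a quinone reductase, by -0.92 ± 0.29.

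Developmental transcription factors gave uneven levels over lines. Zic1 was near 3 in every Other line (2.57 to 3.09), and in Type 2 it was 2.82, 8.81, 2.67, 9.19 and 2.90. Among the 12 lines, Type 2 lines 2 and 4 alone had a high level, and the difference of the means was -2.45 ± 0.86. Gata6, a factor of visceral mesenchyme, was 5.01 to 6.68 in Other with a median of 6.10 and 7.32, 6.37, 6.46, 7.46 and 6.82 in Type 2 (difference -0.86 ± 0.25, limma, adjusted p = 0.15).

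**Figure D4:**
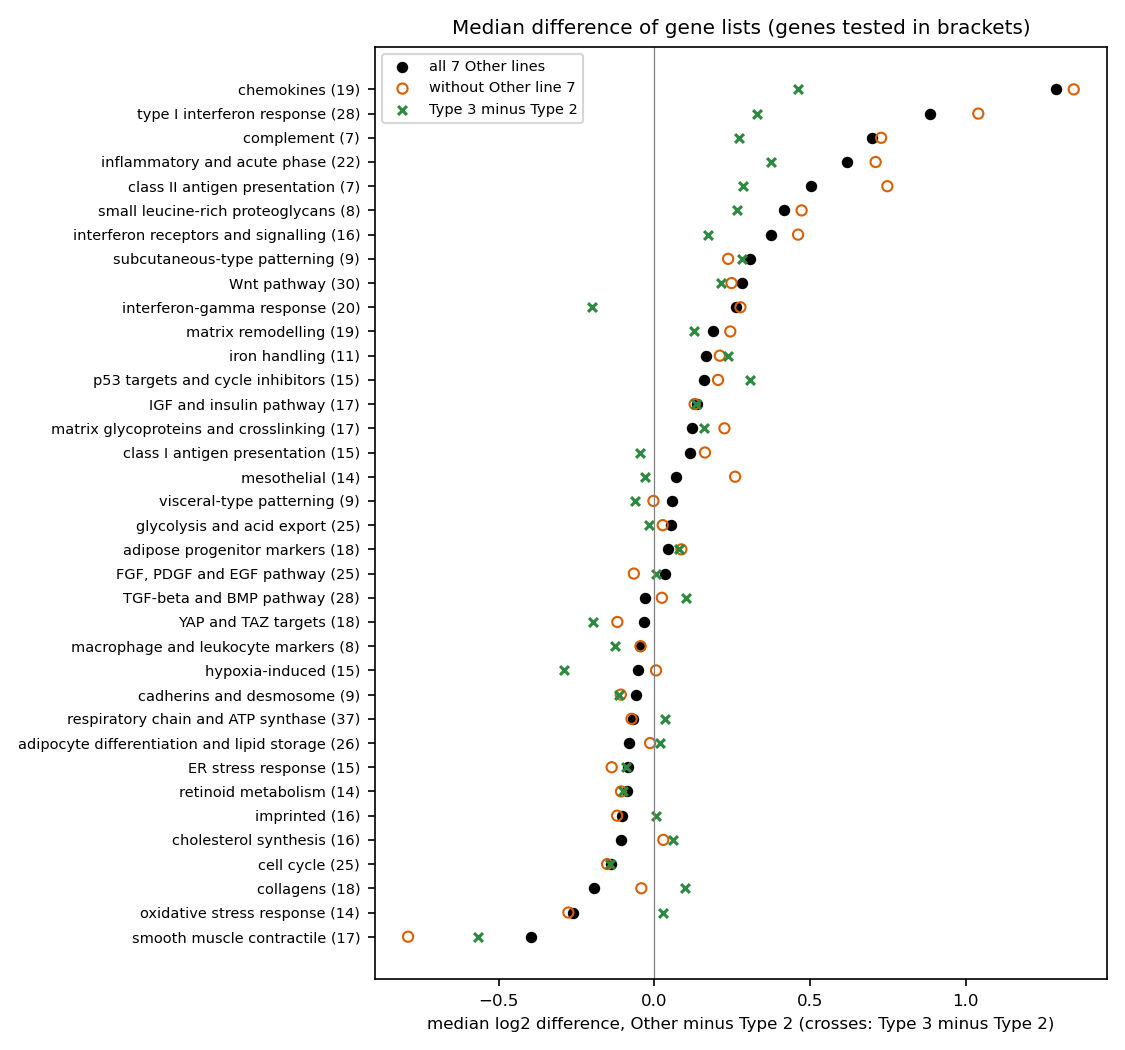
Median log2 difference (horizontal axis) of each list with at least 7 tested genes, for Other minus Type 2 with all lines (black), without Other line 7 (orange rings) and for Type 3 minus Type 2 (green crosses). The chemokine list (1.29) and the type I interferon response (0.88) have the highest medians in Other and smooth muscle genes (-0.40) the lowest.

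Type 3 values are set beside these because both comparisons use the same Type 2 lines. The chemokine median was 1.29 in Other and 0.46 in Type 3, and the type I interferon median was 0.88 and 0.33. For interferon gamma genes it was 0.26 in Other and -0.20 in Type 3, and for smooth muscle genes -0.40 and -0.57. Type 3 line 4 weighs on the interferon values, with list scores of -2.19 for interferon gamma genes and -1.43 for type I genes. The median score over lines for interferon gamma genes was -0.08 in Type 3 and -0.17 in Type 2, so Type 3 was not lower on that measure. Type 3 line 4 also enters the spread that the fit uses for Other minus Type 2. Cxcl10 differed from Type 2 by 2.02 ± 0.58 in Other and by 0.46 ± 0.56 in Type 3, and Other minus Type 3 was 1.56 ± 0.51 (limma, adjusted p = 0.49). Pkp2 differed by -2.0 ± 0.36 in Other and -2.36 ± 0.35 in Type 3, with Other minus Type 3 at 0.36 ± 0.32 (0.77).

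The Other lines had wider spread and lower correlations among themselves than the Type 2 lines. The median SD over genes was 0.24 in Other and 0.17 in Type 2, and 74.9% of the 12307 genes had the larger SD in Other. Pairs of lines, compared over gene-centred values, had a mean correlation of 0.01 within Other (21 pairs, from -0.33 to 0.49), 0.27 within Type 2 (10 pairs, from 0.11 to 0.41) and -0.04 across the groups (35 pairs). These correlations are across genes within pairs of arrays, genes are not independent replicates, and the values are a description. The types were formed by clustering these expression data, so Type 2 lines are alike, and unassigned lines less so, by construction.

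Each line was also set against the mean of each type, leaving a line out of its own type. Type 2 lines correlated with the Type 2 mean at 0.30 to 0.52. Other lines 7 (0.24), 5 (0.17), 1 (0.12) and 3 (0.10) correlated positively with that mean, and lines 6 (-0.24), 2 (-0.36) and 4 (-0.46) negatively. Against the Type 3 mean, lines 4 (0.41), 2 (0.37), 3 (0.27) and 1 (0.22) were positive, lines 6 (-0.01) and 5 (-0.09) near 0 and line 7 (-0.40) negative. Lines 2 and 4, the pair most alike within Other (0.49), both had high Mx1, Cfb and Wnt16, and line 6 shared the high interferon and chemokine levels without the correlation with Type 3. Line 5 had a type I interferon score of 0.68, beside 0.72 in line 2 and 0.68 in line 4, but a chemokine score of -0.60.

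**Figure D5:**
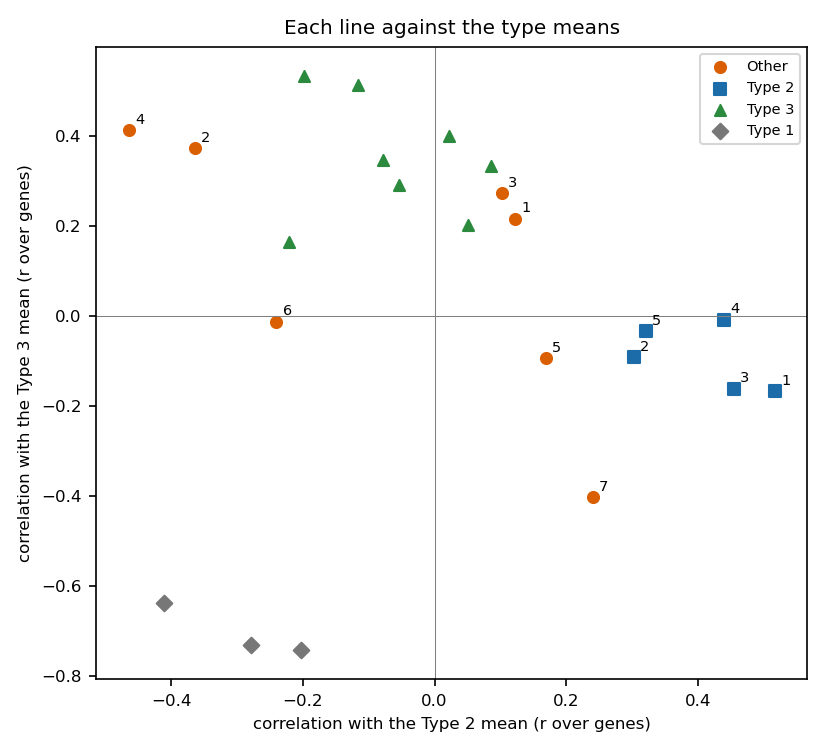
Correlation over genes of each line with the Type 2 mean (horizontal axis) and with the Type 3 mean (vertical axis), with line numbers for Other (orange circles) and Type 2 (blue squares), beside Type 3 (green triangles) and Type 1 (grey diamonds). The Type 2 lines lie at 0.30 to 0.52 on the horizontal axis and the 7 Other lines between -0.46 and 0.24.

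Both depots were present in each group, and the ranges of the array measures overlapped. No gene passed a test of whether the difference depended on depot (group by depot, limma, smallest adjusted p = 0.12, with 1203 genes at an unadjusted p below 0.05), which rests on 1 PGF line of Type 2. Within SCF lines (4 against 4) the difference was 3.54 ± 0.99 for Mx1, 1.28 ± 0.41 for Ifit1, 1.48 ± 0.60 for Cxcl10, -2.76 ± 0.59 for Acta2 and -1.41 ± 0.35 for Pparg. Array medians were 5.11 to 5.16 in Other and 5.10 to 5.16 in Type 2. The signal of the 3' actin control probe set exceeded the 5' one by 0.53 to 1.00 in Other and by 0.65 to 1.00 in Type 2. The value of 0.53, the lowest of the 12 lines, was that of Other line 7. This line also had the highest actin level of the 12 (14.31) and the lowest mean correlation with the other arrays (0.9747). Its ribosomal RNA control was the lowest (11.15, and next 11.635 in Type 2 line 1). Whether these array measures bear on the results for Other line 7 was not tested.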

How the data were processed

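Expression was measured on 1 oligonucleotide probe set array per line from 250 ng of total RNA with biotin labelling, per the labels' protocols. The range of the deposited table (2.03 to 14.46) is that of log2 signal, and its values were not changed. MAS5 is named in the submitters' processing notes, with no version; the sources used here do not give how arrays were scaled. Of 45101 probe sets, 34958 carried 1 gene symbol in the platform annotation, 932 several and 9211 none; 34741 were matched by Entrez ID to RefSeq genes of GRCm38.p6. Control probe sets were left out. Each of 18193 genes was represented by its probe set of highest mean over all 23 lines, and those higher than the median of the whole table (5.13) in 3 or more lines, 12307 genes, were tested.

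Other minus Type 2 was fitted with limma 3.58.1 (lmFit and eBayes; R 4.3.3), using all 23 lines and Benjamini-Hochberg adjustment with a threshold of 0.05. Scores were compared by exact permutation tests and depot by Fisher's exact test, in Python 3.11.15. The scripts were tested on simulated data. The groups, the 45 gene lists and the rule for named genes were chosen with earlier results of these data known. The rule names 12 genes per direction: those past the threshold by size of difference, then those of smallest p, which are given as values, leaving out clone and predicted names. It adds Wt1, Tagln, Mx1 and up to 4 members of each list described. Genes named beyond it (Tek, Zic1, Gata6, Ccn2, Csf1r, Eif2s3y and list members given as counts) were chosen after their values were seen or belong to lists. The number of arrays limits the precision. Alternatives covered normalization, filtering, probe set choice, lines in the fit, array weights, depot and leaving out each line.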

Additional observations from a re-analysis of the deposited data

Results flagged for a closer look

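Single lines stood apart from the rest of their group in 12 of 148 groups of values checked (27 genes, 45 list scores and the 2 label scores, in Other and in Type 2), by a rule that chance meets in about 1 in 20 groups. Values are given without explanation.

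Other line 7 stood apart for Lrrfip1, at 10.50 against 9.26 to 9.76 in the other 6 lines, for the score of adipocyte differentiation and lipid storage genes, at -0.52 against -0.05 to 0.27, and for the score of YAP and TAZ targets, at 0.66 against -0.24 to 0.06. Other line 6 stood apart for Zup1, at 9.47 against 8.48 to 8.90, for the mesothelial score, at 0.29 against -0.75 to -0.39, and for the matrix remodelling score, at 0.75 against -0.18 to 0.21. Other line 1 stood apart for Mamdc2, at 4.96 against 3.96 to 4.34, for the score of the study's marker genes, at -1.14 against -0.14 to 0.40, and for the Y-linked score, at -2.10 against -0.19 to 0.38.

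Within Type 2, line 2 stood apart for the Y-linked score, at 0.97 against 0.01 to 0.25. Line 3 did so for the score of clustered beta protocadherins, adhesion genes known to be switched on in differing sets in single cells, at -0.79 against -0.18 to 0.02. Line 4 had the lowest score of macrophage and leukocyte markers, at 0.078 against 0.47 to 0.50.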

How the results depend on the processing

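The count of genes past the adjusted threshold was 1 with all lines. It was 3 after quantile normalization, 0 with the probe sets of a gene averaged (1517 at an unadjusted limma p below 0.05), 0 with only the 12 lines fitted (1352), 2 without the Type 1 lines, 104 with array weights and 27 in SCF lines alone, and 1 under the other 6 settings that kept all lines. Leaving out 1 line of any group gave 0 to 216 genes, the highest without Other line 7 and the lowest without Type 2 line 1 (1291 at an unadjusted p below 0.05). It was 13, 16 and 2 without Other lines 1, 3 and 5, 5 and 2 without Type 2 lines 4 and 5, and, in alternatives added after seeing the data, 22 without Type 3 line 4 and 2 without Type 1 line 2. The count of genes whose groups do not overlap was 85, and 97 to 319 with a line left out, values added after seeing the data. Leaving out a line can only keep or raise this count, so the rise does not test it. The differentiation score, Other minus Type 2, was -0.09 and lay between -0.3 and 0.21 with a line left out, so it changed sign. The media acidification score, Other minus Type 2, lay between -1.64 and -0.89. Over 110 named genes and 3847 alternative values, 3723 were classed as the same and 0 as reversed. Another 120 passed the threshold where the main value did not (47 genes), and 4 no longer passed, all of Itpkb. A difference near 0, such as that of Actg2 (0.05 ± 0.97), has no settled sign. Of 45 list medians under 35 settings, 5 of 1575 values moved by more than the spread between lines. No paired analysis was possible because replicate numbers follow the order of deposit and pair no lines. The cause of these changes was not tested. Genes near the low end of the signal were not separated from background by any detection call. Folds of genes with lines below the table median of 5.13 carry this limit. Examples are Mx1, Wnt16 and Scara5 in Type 2, and Megf10, Pkp2 and Aldh1a7 in Other.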

Other observations

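Whole chromosomes were read in each line as the median, over the tested genes of a chromosome, of a line's log2 value minus the gene's median over all 23 lines. This description was added after seeing the data and has no test, and its cause was not tested. In Other line 5, chromosome 16 (396 genes) stood at 0.21, with 75.5% of its genes above their medians, and chromosome 15 at -0.12. In Other line 6, chromosome 9 (688 genes) stood at -0.20 and chromosome 17 (604 genes) at -0.18, with 70.2% and 71.4% of genes below their medians, and chromosome 7 at -0.11. Other line 7 had chromosome 3 (610 genes) at 0.17, with 69.2% of genes above, and chromosome 5 (796 genes) at -0.10, with 65.6% below. Other line 1 had chromosome X (372 genes) at -0.18 and chromosome 19 at 0.12. In Type 2 line 5, chromosome 5 (796 genes) stood at -0.13, chromosome 1 at -0.11 and chromosome 10 (599 genes) at -0.10, and in Type 2 line 3 chromosome 1 stood at -0.11. In Other lines 2, 3 and 4 and Type 2 lines 1, 2 and 4, 0 of 20 chromosomes were shifted by 0.1 or more.

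The Y-linked translation factor gene Eif2s3y was 3.19 in Other line 1 and 9.30 to 10.25 in the other 6 Other lines, and 9.72 to 10.54 in Type 2. Other line 1 is the line whose X chromosome median was lowest among the 12. Among the 3 Y-linked genes tested, the other two, Kdm5d and Uty, were not low in Other line 1: Kdm5d was 6.88 there and Uty 6.90. All lines came from 1 male mouse, per the labels.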
